A study of Mus musculus with 2 samples.

Results

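DNase-seq treats nuclei with the nuclease DNase I and sequences the cut ends, and stretches with many cuts are called as peaks of accessible chromatin. The peaks described here are those whose midpoint lay inside the coding sequence (CDS) of a protein-coding gene and more than 1000 bp from the start of any protein-coding transcript. There were 5930 such coding exon peaks among 140127 peaks in replicate 1 (4.23%) and 3356 among 114404 in replicate 2 (2.93%), a mean of 3.58% ± 0.918 (SD, n = 2). The choice used position alone and no measured height. The tissue was whole cerebellum of 2 male mice of the F1 hybrid strain B6CASTF1/J, aged 36 days, with 1 library per animal and both animals in 1 group. No treatment, genotype or second tissue was compared, and both animals carry 1 donor entry in the labels, so their spread may be largely technical. With 1 group of 2 animals no test between conditions or across animals was possible, and a difference is given here with its value in each animal. Pairs of values stand in the order replicate 1, replicate 2.

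Most accessible sites of a genome lie in promoters, introns and the sequence between genes, where transcription factors bind enhancers and insulators. Exons can carry such sites as well, and a base there then serves both the protein code and the binding of a factor. Within an accessible site a bound protein can shield a short run of bases from the nuclease, and such protected runs are called footprints. The cerebellum consists mostly of granule cells, with Purkinje cells, interneurons and glia beside them. In a mixed tissue, a site that is open in fewer cells and a site that is cut less often in each cell cannot be told apart.

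The tissue label was checked with promoter peaks. All 20 listed granule cell genes had one in both animals, as did 17 and 17 of 20 Purkinje cell genes, against 2 and 2 of 15 liver genes and 5 and 3 of 15 striated muscle genes. Promoter peaks were common in general. They stood at 85.6% and 82.5% of genes with a coding exon peak and at 68.2% and 66.0% of the others. All 24 listed chromatin regulators had one in both animals, as did 15 and 14 of 15 astrocyte genes and 9 and 8 of 15 oligodendrocyte genes. The check therefore does not single out granule cells. Sequencing depth is not given. The deposited heights moved in steps of 0.00542 in replicate 1 and 0.00988 in replicate 2, so heights are compared within a library. The median coding exon peak was 119 steps high in replicate 1 and 83.0 steps in replicate 2. Some peaks overlapped another peak of the same list, namely 221 coding exon peaks (3.73%) in replicate 1 and 96 (2.86%) in replicate 2, so neighbouring peaks in one exon are not always separate sites. Joined where they overlapped each other, the coding exon peaks made 5839 and 3319 stretches.

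The sequences below show what protein-coding DNA looked like under 8 coding exon peaks found in both animals. Of these, 7 are among the 10 highest coding exon peaks, and Cxxc4 stands for the genes with most peaks per kb of coding sequence. Each run is the stretch that the peaks of both animals share, from the C57BL/6J reference (mm10, GRCm38.p6), read 5′ to 3′ on the coding strand of the gene. Capitals mark bases inside a footprint in both animals. The animals are hybrids, so either allele may differ from the reference.
Spi1 (chr2:91115161-91115320, plus strand): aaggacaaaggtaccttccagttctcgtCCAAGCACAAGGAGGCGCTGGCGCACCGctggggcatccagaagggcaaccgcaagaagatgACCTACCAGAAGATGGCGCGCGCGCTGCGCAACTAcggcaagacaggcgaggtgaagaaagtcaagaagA
Klf1 (chr8:84903081-84903300, plus strand): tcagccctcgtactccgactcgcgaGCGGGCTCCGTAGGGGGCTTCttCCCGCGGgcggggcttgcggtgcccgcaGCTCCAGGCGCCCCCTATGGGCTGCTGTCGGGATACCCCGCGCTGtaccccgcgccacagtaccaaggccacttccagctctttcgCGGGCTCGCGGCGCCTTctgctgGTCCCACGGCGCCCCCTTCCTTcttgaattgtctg
Notch4 (chr17:34587541-34587700, plus strand): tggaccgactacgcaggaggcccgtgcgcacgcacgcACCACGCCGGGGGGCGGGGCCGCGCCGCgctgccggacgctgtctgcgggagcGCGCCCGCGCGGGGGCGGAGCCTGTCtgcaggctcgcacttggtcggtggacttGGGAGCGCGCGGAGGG
Inpp5b (chr4:124751401-124751640, plus strand): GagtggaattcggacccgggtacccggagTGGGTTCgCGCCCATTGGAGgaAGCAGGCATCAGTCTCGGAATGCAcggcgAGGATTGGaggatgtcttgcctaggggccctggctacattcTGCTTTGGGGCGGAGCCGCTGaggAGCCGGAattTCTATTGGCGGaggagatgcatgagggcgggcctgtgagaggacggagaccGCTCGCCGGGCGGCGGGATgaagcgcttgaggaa
Cep250 (chr2:155991921-155992080, plus strand): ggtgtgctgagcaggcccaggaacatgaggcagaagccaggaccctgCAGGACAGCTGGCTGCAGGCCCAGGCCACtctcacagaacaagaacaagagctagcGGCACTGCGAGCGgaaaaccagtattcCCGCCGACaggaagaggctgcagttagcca
Clstn3 (chr6:124458601-124458780, minus strand): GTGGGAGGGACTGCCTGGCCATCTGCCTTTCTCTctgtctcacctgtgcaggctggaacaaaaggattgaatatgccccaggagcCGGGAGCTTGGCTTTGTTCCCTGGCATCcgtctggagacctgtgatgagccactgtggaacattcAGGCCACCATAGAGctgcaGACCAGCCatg
Zfp771 (chr7:127254161-127254320, plus strand): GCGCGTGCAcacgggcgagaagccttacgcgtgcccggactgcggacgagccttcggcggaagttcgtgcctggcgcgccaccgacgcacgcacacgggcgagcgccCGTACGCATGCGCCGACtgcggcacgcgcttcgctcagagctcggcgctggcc
Cxxc4 (chr3:134240401-134240580, plus strand): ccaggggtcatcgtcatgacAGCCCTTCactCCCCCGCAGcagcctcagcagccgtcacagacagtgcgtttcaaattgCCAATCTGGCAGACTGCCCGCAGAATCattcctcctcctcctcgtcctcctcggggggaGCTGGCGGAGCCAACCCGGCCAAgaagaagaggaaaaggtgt

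Of these, 7 peaks of replicate 1 lay wholly in coding sequence, while 74.5% of the Clstn3 peak was coding and the rest intron. The Inpp5b stretch held 9 footprint runs common to both animals over 110 of its 240 bases. That of Klf1 held 5 runs over 112 of 220 bases, and that of Zfp771 held 2 runs over 26 of 160 bases. The SP/KLF letters GGGCGG, read on either strand, occurred in the Klf1, Notch4 and Inpp5b stretches, and the NRF1 letters GCATGCGC in that of Zfp771. The Inpp5b peak lay 9633 bp from the nearest protein-coding start but 157 bp from the start of the processed transcript Gm12915. Likewise the Cxxc4 peak lay 3 bp from the start of the antisense transcript Gm26691, the Notch4 peak 580 bp from a processed transcript of Notch4, and the Clstn3 peak 796 bp from one of Clstn3. Whether those starts bear on the peaks was not tested.

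Coding sequence held more peaks than its length alone would give. The coding bases that lay more than 1000 bp from a start, 29.5 Mb in 177615 coding segments of 19699 genes, made up 1.11% of the ungapped genome. A coding segment is a stretch of CDS after the transcripts of a gene are merged. The share of peaks was 3.80 and 2.63 times the share of bases, and there were 201 and 114 coding exon peaks per Mb. They touched few of the exons available: 5198 and 3029 segments, or 2.93% and 1.71%, held a midpoint. At least 1 coding exon peak lay in 3949 genes (20.05%) and 2587 genes (13.1%), with 2223 genes common to both animals and 4313 in either. Most of these genes had exactly 1, namely 2747 and 2038, and 102 and 21 genes had 5 or more. The median share of a peak's bases in CDS was 96.1% and 91.8%. Wholly in CDS lay 47.2% and 43.4% of the peaks, and the others ran into an intron or untranslated exon. Among all of the peaks, 51 and 25 lay in CDS of more than 1 gene.

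Density was highest close to the excluded promoter zone and in exons rich in G and C. From the 1000 bp limit up to 2000 bp from a start there were 410 and 242 peaks per Mb, and beyond 5000 bp between 149 and 184 in replicate 1 and between 90.4 and 109 in replicate 2. That first interval held 17.6% and 18.3% of the peaks and 8.61% of the eligible coding bases. The median distance to a start was 7735.5 and 9119.5 bp, nearer than the 11847 bp of the eligible coding segments weighted by their bases. Around the distance limit, 140 and 86 peaks up to 100 bp beyond it had median heights of 0.818 and 0.854, and 174 and 122 coding peaks left out up to 100 bp short of it had 0.683 and 0.923. The share of coding segments with a peak climbed with the GC content of their middle 150 bp. It was 0.0631% in both animals below 40% GC, 4.96% and 2.66% at 55 to 60% GC, and 44.4% and 30.7% at 70% GC or more. These GC-rich exons are few, with 708 segments in the highest class and 25366 in the lowest.

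**Figure D1:**
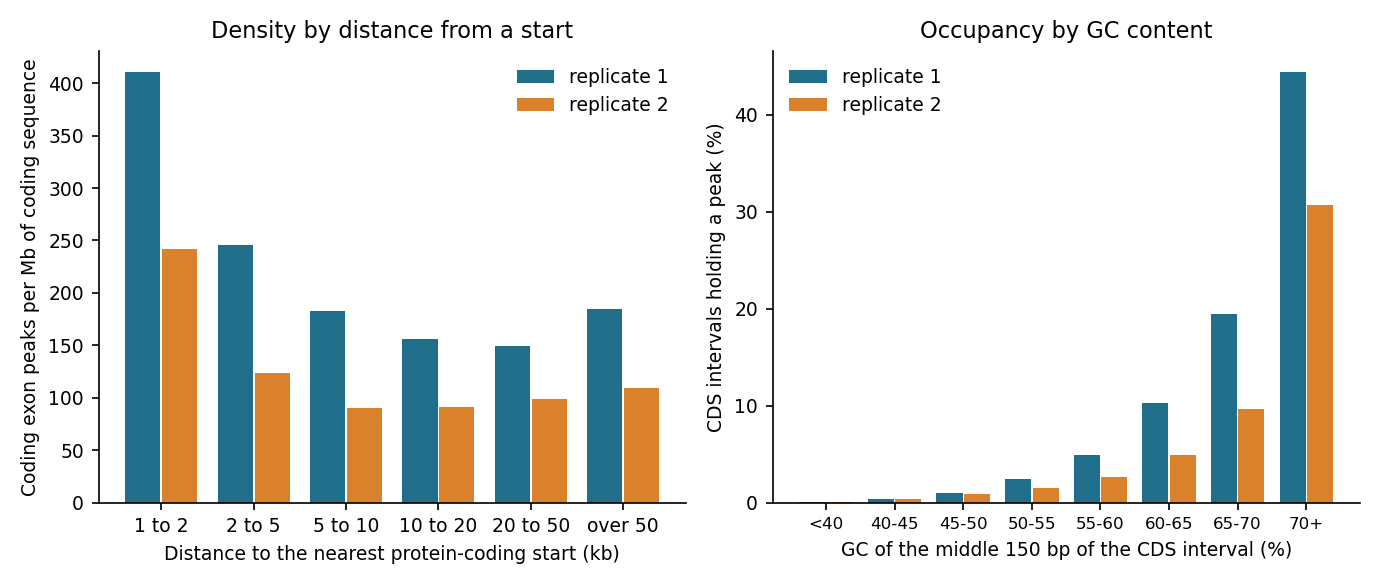
Left, coding exon peaks per Mb of eligible coding sequence by distance to the nearest protein-coding start, for replicates 1 and 2. Right, percent of coding segments that hold a peak, by GC content of their middle 150 bp: the share goes from 0.0631% below 40% GC to 44.4% and 30.7% at 70% GC or more.

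The exons with a peak differed in length and order from coding sequence as a whole. The median length of the segment holding a peak was 240 and 228 bp, whereas the median over eligible coding bases was 180 bp. Segments over 1000 bp held 20.3% and 20.1% of the peaks and 15.7% of the bases, and segments of at most 100 bp held 6.88% and 7.24% of the peaks and 13.8% of the bases. First coding segments held 7.23% and 7.27% of the peaks against 3.81% of bases. Last coding segments held 19.98% and 19.3% against 15.7%, and genes with a single coding segment 7.57% and 8.40% against 4.40%. Some of the peaks lay near the starts of non-coding or minor transcripts. A start of any annotated transcript lay within 1000 bp of 19.7% and 18.95% of coding exon peaks, beside 7.35% and 7.08% of intron peaks and 4.08% and 4.10% of intergenic peaks. The same share was not taken over coding sequence without a peak, so whether it is particular to these peaks was not tested. Median GC over the 150 bp at the peak centre was 59.3% and 58.0%, against 54.0% and 52.0% in intron peaks and 52.0% in coding segments of at least 150 bp with no peak in either animal. At least 10 CpG dinucleotides, the sites of DNA methylation, stood in 19.6% and 20.4% of the coding exon windows, in 2.35% and 2.08% of the intron windows and in 3.72% of the peak-free coding windows.

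In height the coding exon peaks were close to intron peaks and well below promoter peaks. Their median height was 0.645 in replicate 1 (quartiles 0.396 and 1.30, highest 27.8) and 0.820 in replicate 2 (quartiles 0.474 and 1.63, highest 17.3). Intron peaks had medians of 0.705 and 0.810, intergenic peaks 0.531 and 0.672, and promoter peaks 1.95 and 1.81. Ranked within its own list, the median coding exon peak stood at percentile 44.3 and 46.7, a mean of 45.5 ± 1.70 (SD, n = 2), beside 46.8 ± 0.795 for introns, 38.2 ± 1.496 for intergenic peaks and 72.0 ± 1.81 for promoters. The difference between coding exon and intron peaks was smaller than the spread between animals and changed sign between them. Above percentile 90 of all peaks stood 212 coding exon peaks (3.58%) and 139 (4.14%), against 4.42% and 3.99% of intron peaks and 28.9% and 27.9% of promoter peaks. Height was lower far from starts, with median percentiles of 33.8 and 35.7 beyond 50000 bp, where intron peaks were at 39.7 and 38.6.

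The 10 highest coding exon peaks common to both animals lay in genes of several kinds. Angptl6, which encodes a secreted angiopoietin-like protein, ranked first on average, with heights of 27.2 and 17.3, 1436 bp from its own start in the first of 5 coding segments. Spi1 encodes PU.1, an ETS transcription factor of myeloid and B cells, and its peak (27.8 and 14.3) lay in the last of 6 coding segments, 2903 bp from the nearest start, which is that of Mybpc3. Notch4, a receptor of the Notch pathway known from endothelium, had 26.1 and 14.8 in the last of 31 segments. The erythroid Krüppel-like factor gene Klf1 had 23.1 and 10.9 in the second of 3 segments. Rasip1, a Ras-interacting protein of endothelial cells, had 24.4 and 15.9, with the antisense transcript A030001D20Rik starting 96 bp away. Inpp5b, a phosphatase acting on inositol phosphates, had 20.8 and 16.3. The lipid transfer protein gene Vps13d had 20.3 and 13.2 in segment 41 of 69, 57345 bp from a protein-coding start. The other members of this group were Cep250, a centrosomal linker protein (18.9 and 14.6), Clstn3, the synaptic adhesion protein calsyntenin-3 (18.99 and 13.7), and the zinc finger gene Zfp771 (17.98 and 12.7). All 10 were above percentile 90 of both lists, from percentile 96.6 upward in either animal.

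Sharing between animals was unequal in direction. A coding exon peak of replicate 1 overlapped some peak of replicate 2 by at least 1 bp in 2881 cases, or 48.6%, where the same was true of 65.8% of all peaks of that animal and 64.9% of its intron peaks. From replicate 2 the overlap was 2847 peaks or 84.8%, against 80.4% of all its peaks and 78.3% of intron peaks. Coding exon peaks were thus below the background in one animal and above it in the other. The mean was 66.7% ± 25.6 (SD, n = 2), beside 71.6% ± 9.46 for introns. Both values of a class are the 2 directions of 1 comparison between lists of unequal length. Their SD is therefore no spread between independent measurements and cannot show whether the classes differ. The remaining 3049 and 509 peaks had no counterpart. Many of the unshared peaks were low: their median heights were 0.439 and 0.375, against 1.27 and 0.968 in shared ones. A stretch listed below a false discovery rate of 0.05 in the other animal touched 219 (7.18%) of the unshared peaks of replicate 1 and 126 (24.8%) of those of replicate 2.

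Sharing climbed with height in each animal and differed from that of intron peaks of the same height class. In 5 equal classes of the heights of all peaks outside promoters, sharing of coding exon peaks climbed from 9.72% in the lowest to 98.8% in the highest for replicate 1, and for replicate 2 from 52.8% to all 652 peaks of the highest class. Intron peaks went from 20.4% to 99.3% and from 39.5% to 99.4%. Weighted to the height classes of the coding exon peaks, intron peaks were shared at 63.0% and 78.5%. Weighted to their height and GC classes together, introns reached 55.8% and 84.7%, beside 48.6% and 84.8% for coding exons. GC content moved with sharing, and not in the same way in the 2 animals. Sharing of intron peaks was 75.7% below 40% GC, 59.6% at 60 to 65% GC and 78.1% at 70% GC or more in replicate 1, and 35.7%, 92.7% and 96.3% in replicate 2. With the 114404 highest peaks taken from each animal, 55.6% and 82.2% of coding exon peaks were shared, beside 73.2% and 74.2% of intron peaks. The gap between the animals was then smaller than with the full lists in both classes. The part of GC-dependent recovery in either library was not tested.

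**Figure D2:**
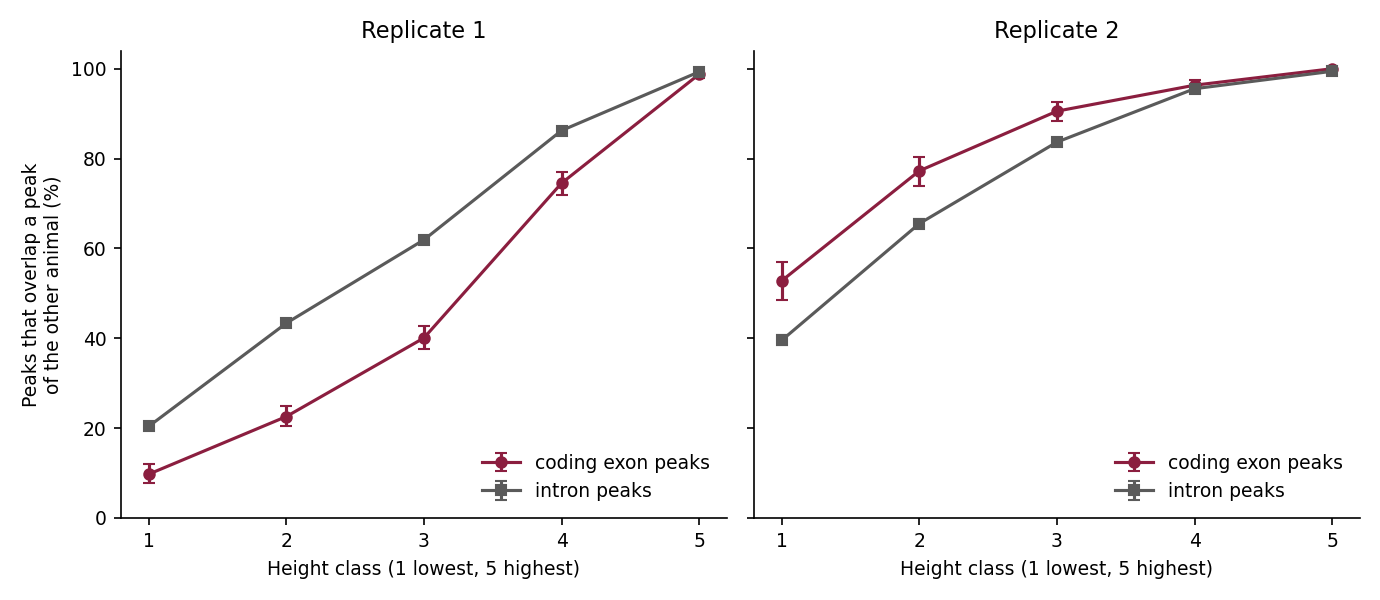
Percent of peaks that overlap a peak of the other animal, by class of peak height, for coding exon and intron peaks of replicate 1 (left) and replicate 2 (right). Bars are exact 95% Clopper-Pearson intervals and cover counting error only. Coding exon peaks lie below introns in classes 1 to 4 of replicate 1 and above them in classes 1 to 4 of replicate 2, and all curves end at 98.8% or more.

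Coding exon peaks that were found in both animals kept their rank. One-to-one matching gave 2600 pairs, and their heights correlated with Spearman's rho of 0.930 and Pearson's r of 0.939 on log2 heights. This is across peaks of 2 libraries, which are not independent replicates, and both libraries share the sequence and position of each peak. Among the pairs, 126 were above percentile 90 of both lists.

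**Figure D3:**
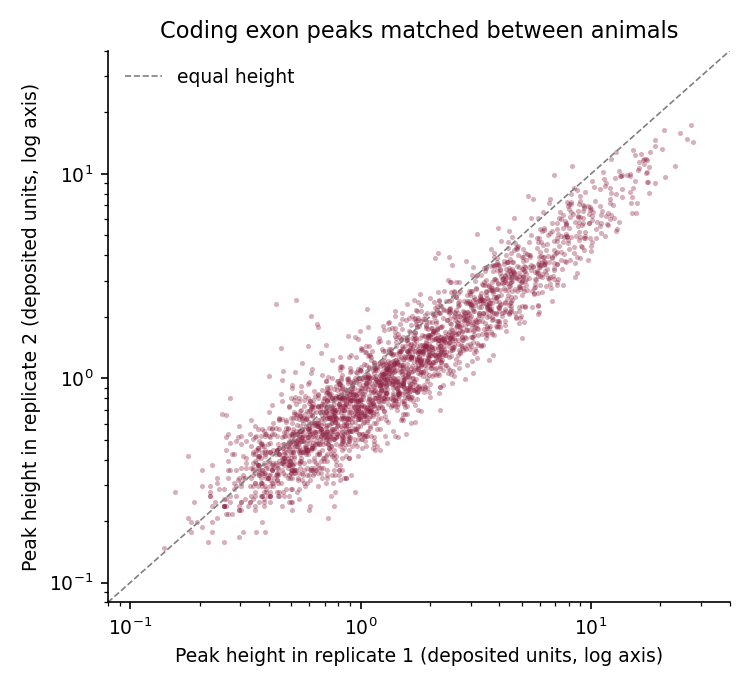
Heights of 2600 coding exon peaks matched between the animals, replicate 1 on the x axis and replicate 2 on the y axis, both on log axes in the deposited units of each library. Points follow a narrow band (Spearman's rho 0.930); the dashed line is equal height, and the 2 scales are not normalized to each other.

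Footprints were found in most coding exon peaks. At least 1 was present in 4558 peaks (76.9%) of replicate 1, where all peaks had 78.4%, and in 2371 (70.7%) of replicate 2, where all peaks had 72.5%. Both shares were near the background, and intron peaks had 81.4% and 75.01%. At matched height classes introns had 81.0% and 75.4%, and at matched height and GC classes 77.7% and 72.1%. A coding exon peak held on average 1.88 and 1.80 footprints, with at most 14 and 12, and 421 and 242 peaks held 5 or more. Presence depended on height, from 39.2% and 16.0% in the lowest class to 99.5% and 99.4% in the highest. Footprints took up 12.3% and 11.5% of the bases of coding exon peaks, fewer than the 16.4% and 13.4% of intron peaks in the same animals. The means were 11.9% ± 0.567 and 14.9% ± 2.17 (SD, n = 2). Of the matched pairs, 1931 (74.3%) had a footprint in both animals.

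The peaks with most footprints in both animals were those of Angptl6 (12 and 10), Srcin1, a Src kinase signalling inhibitor of synapses (11 and 10), Inpp5b (9 and 9), Neb, the muscle filament protein nebulin (9 and 10), and the zinc finger gene Zfp316 (14 and 9). Width differed among them: the shared stretch was 240 bp in Inpp5b, 260 bp in Neb, 440 bp in Angptl6, 480 bp in Srcin1 and 560 bp in Zfp316. The Zfp316 peak was moderate in height (2.75 and 1.54) and lay wholly in a last coding segment of 2354 bp. Of the Srcin1 peak only 40.8% of the bases in replicate 1 were coding, so its footprints need not all lie in the exon.

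Of 11061 and 5987 footprints touching a coding exon peak, 82.3% and 80.5% were wholly inside CDS and 4.29% and 4.54% crossed an edge of it. Of all bases of these peaks, which were chosen by a midpoint in CDS, 82.5% and 81.3% were coding, close to the shares of the footprints. Their median width was 10 bp in both animals. Around the edges of 3412 and 1969 internal coding exons the share of peak bases in footprints was uneven. It was 17.04% and 16.5% at 21 to 30 bp inside the 5′ end of the exon and 9.50% and 8.46% at 11 to 20 bp upstream of it, in the intron. At the 3′ end it was 17.8% and 16.6% at 21 to 30 bp inside, 9.77% and 9.53% in the first 10 bp of the intron, 14.0% and 12.6% in the next 10 bp, and 8.30% and 8.48% at 51 to 60 bp. Both animals showed the low values next to the splice sites. Peaks were chosen by a midpoint in the exon, so intron bases lie nearer to peak borders, and the part of that in the profile was not tested.

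**Figure D4:**
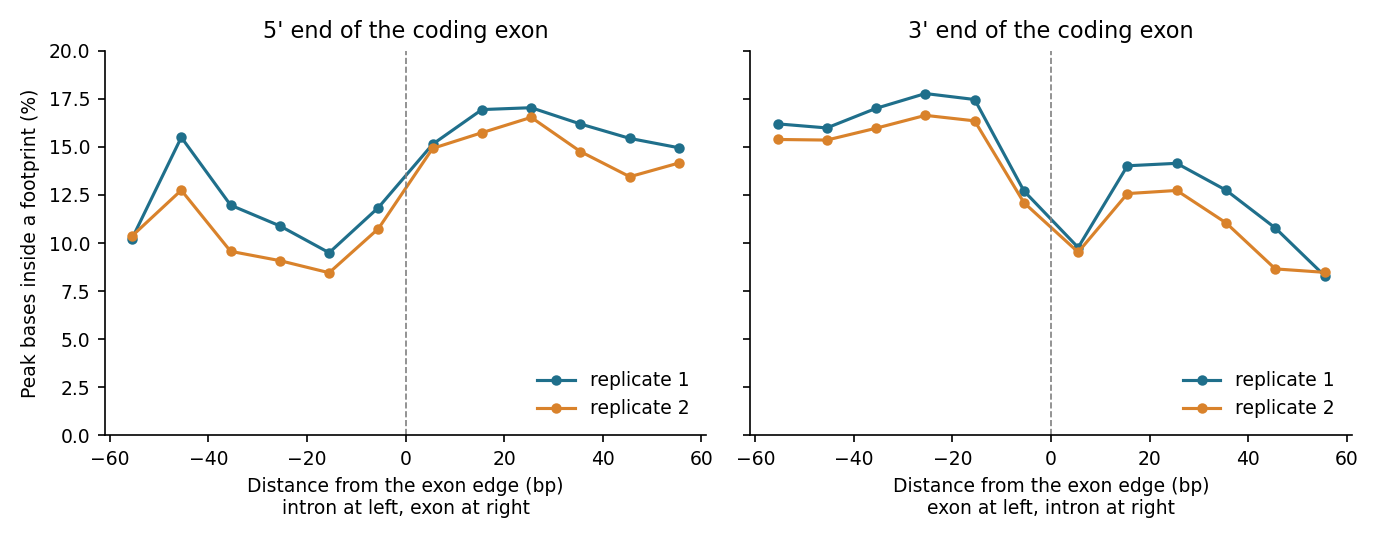
Percent of peak bases inside a footprint, in bins of 10 bp within 60 bp of the 5′ end (left) and the 3′ end (right) of internal coding exons that hold a peak, for both replicates. The share dips in the intron near the edge, to 9.50% and 8.46% on the left and 9.77% and 9.53% on the right, and is between 12.1% and 17.8% on the exon side.

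Known motif letters were counted on both strands of the central 150 bp of each peak, and matches of different motifs may overlap. The CTCF consensus, the site of the insulator protein CTCF, stood in 1.99% and 2.80% of coding exon peaks, 4.63% and 5.45% of intron peaks and 0.0851% of peak-free coding segments of at least 150 bp. Among coding exon peaks above percentile 90 it stood in 11.3% and 5.04%, beside 14.1% and 6.32% of intron peaks and 16.4% and 8.46% of intergenic peaks of that height. Where the CTCF consensus occurred in a coding exon peak, its centre was in a footprint at 106 of 118 sites (89.8%) and 77 of 94 sites (81.9%). The same shares in introns were 89.8% and 80.7%, and over all bases of the coding exon windows 13.5% and 12.8% were in footprints. SP/KLF letters (GGGCGG) stood in 12.01% and 10.9% of coding exon peaks, 6.69% and 5.38% of intron peaks and 4.08% of peak-free coding segments. Their centres were in a footprint at 25.9% and 26.4% of sites, and at 36.8% and 30.7% in introns.

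E-box letters, bound by basic helix-loop-helix factors such as Neurod1, differed by type. CAGATG stood in 17.6% and 20.2% of coding exon peaks, fewer than the 22.1% and 24.2% of intron peaks, with 14.9% in peak-free coding segments. CAGCTG stood in 18.1% and 17.9%, more than the 14.3% and 12.6% of introns, with 14.4% in peak-free coding segments. The ZIC letters CAGCAGG, named for a factor family of granule cells, were in 15.2% and 16.0%, beside 13.8% and 13.7% of introns and 8.07% of peak-free coding segments. The AP-1 letters TGANTCA were at 2.77% and 2.95%, near the 3.01% of peak-free coding segments and below the 5.71% and 6.38% of introns. These are matches of letters, and base composition differed between the sets as given above.

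Genes with most coding exon peaks were led by Syne1, which encodes the giant nuclear envelope protein nesprin-1. It had 18 and 14 peaks over 26221 eligible coding bases, in 15 and 11 segments. The highest was 6.50 in replicate 1 and 2.45 in replicate 2, and these were different peaks: the first lay in segment 42 of 146 and the second in segment 60. Of the Syne1 peaks, 15 of 18 and 12 of 14 overlapped a peak of the other animal. Irs1, an adaptor of insulin and IGF signalling, had 7 and 9 peaks along a single coding segment of 3693 bp, and the one nearest the start was the highest (2.53 and 2.64). Tchh, trichohyalin of the hair follicle, had 7 and 8 low peaks (highest 1.13 and 0.968) and no promoter peak in either animal. Mtcl1, a microtubule crosslinking factor, had 11 and 6.

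Cacna1a, the pore subunit of the P/Q-type calcium channel that Purkinje and granule cells use, had 6 and 8 peaks with 22 and 30 footprints. Its highest in replicate 1 (14.8, with 9.76 in replicate 2) lay in the last of 47 coding segments (chr8:84639421-84639720), and its highest in replicate 2 (10.3, with 13.2 in replicate 1) covered segment 17 and the intron beside it. Of that second peak only 30.9% and 28.3% of the bases were coding. Srcin1 had 7 and 6 peaks, the highest at 17.5 and 9.14 in segment 14 of 22. Myh14, a nonmuscle myosin heavy chain, had 7 and 6 with the highest at 12.05 and 6.00. Spen, a transcriptional corepressor, had 11 and 4, all in 1 segment. Sptbn4, a spectrin gene, had 8 and 5. The chromatin remodeller gene Chd7 had 5 and 6, and Srebf2, the regulator of sterol synthesis, had 5 and 5, each in a different segment. Also among the first 20 were Sphkap (7 and 6), Neb (6 and 6), Pcdh10 (9 and 5), Dst (8 and 5), Ccdc162 (6 and 5), Hectd4 (6 and 5), Pcdh17 (5 and 6) and Cand2 (5 and 5). Ccdc162 also lacked a promoter peak in both animals.

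**Figure D5:**
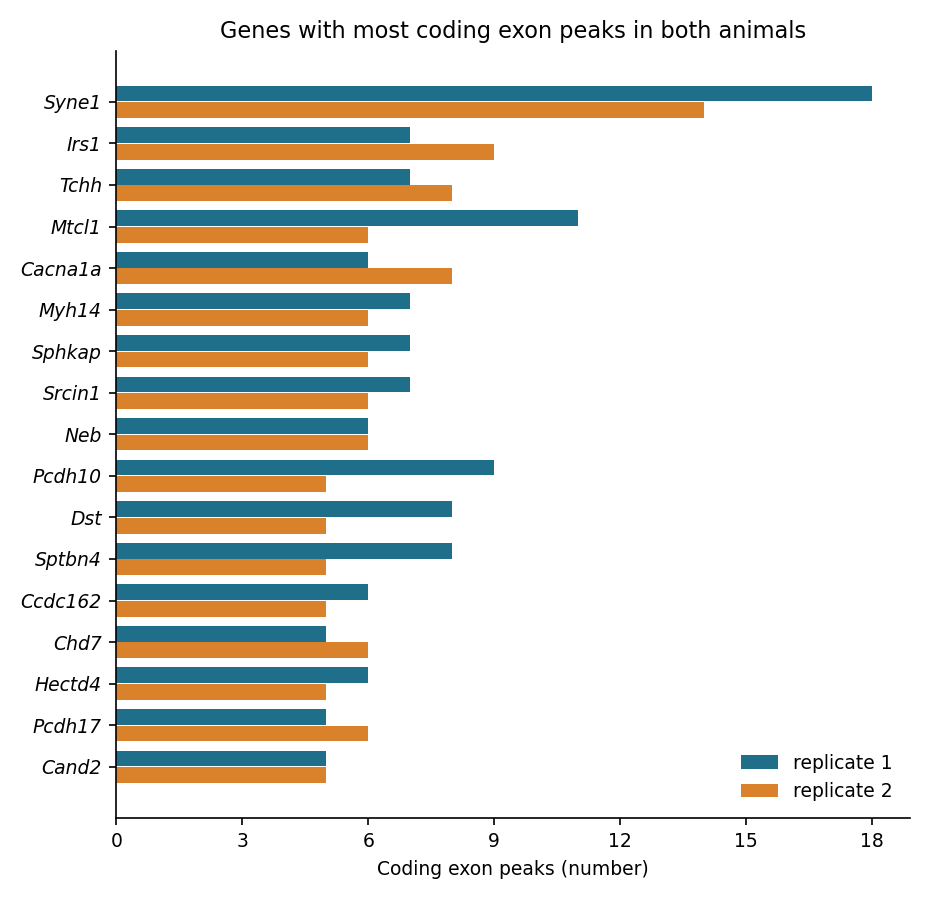
Number of coding exon peaks in the first 17 genes ranked by the smaller of their 2 counts, for both replicates. Syne1 leads with 18 and 14, and among the genes drawn the counts of Mtcl1 (11 and 6) differ most between the animals.

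These 20 genes together held 149 and 125 coding exon peaks, or 2.51% and 3.72% of them. Over the 4313 genes with a peak in either animal, the counts of the animals had a Spearman's rho of 0.168. That value leaves out the 15386 genes with none in either animal, so each gene without a peak in 1 animal had one in the other. It is therefore no measure of agreement over all genes. Over all 19699 genes the count and eligible coding length had a Spearman's rho of 0.279 and 0.240, which is a different set of genes. Genes with a coding exon peak had a promoter peak in 85.6% and 82.5% of cases, and genes without one in 68.2% and 66.0%.

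Per kb of coding sequence a different set led. With at least 3 peaks in each animal, the first was Cby3, with 3 and 3 peaks in 634 bp, or 4.73 per kb, and no promoter peak; 1 of its peaks spans most of the other 2. En2, a homeobox gene of the midbrain and cerebellum, had 3 and 3 in 804 bp (3.73 per kb). Neurod1, the granule cell helix-loop-helix factor, had 3 and 3 in its single coding segment of 1071 bp. The highest was 3.71 in replicate 1 and 3.02 in replicate 2, and the latter was matched to another replicate 1 peak, of 3.51. Cxxc4, a zinc finger inhibitor of Wnt signalling, had 3 and 3 in 1098 bp, the highest at 5.19 and 3.36. Next to these stood Lrg1, Chst5, Lrrtm2, Slc22a12, Fjx1 and Kcnd2, with 2.37 to 3.18 per kb. Kcnd2, the A-type potassium channel Kv4.2, had 4 and 4 peaks, of which 3 in each animal lay in its first coding segment.

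Marker lists showed which gene groups held coding exon peaks. Across all genes 20.05% and 13.1% had one, at 0.201 and 0.114 peaks per kb and median heights of 0.645 and 0.820. Of 20 granule cell genes, 15 and 11 had one, at 0.719 and 0.472 per kb with median heights of 1.39 and 1.59. Reln, the secreted guidance protein reelin, had 6 and 4, Kcnd2 had 4 and 4, and the homeobox gene Pax6 had 3 and 4, while Cbln1, Cbln3, Chn2, Nfia and Zic2 had none. Among 20 Purkinje cell genes 9 and 7 had one (0.334 and 0.257 per kb), led by the homeobox gene Lhx1 with 2 and 2, Plcb4 with 1 and 3, and Ebf2 with 1 and 1. In Ebf2 the peak was 3.50 and 3.48 high, in segment 14 of 16. Astrocyte and Bergmann glia genes had 5 and 3 of 15 (0.3796 and 0.1898 per kb). Notch1 led them with 3 and 2 peaks, the highest at 0.661 and 0.839. Gfap (3.09 and 2.13) and Slc1a2 (1.20 and 0.849) had 1 peak in each animal. In 10 of the 15 genes, among them Aqp4, Gja1 and Aldh1l1, neither animal had one. Per kb this list was above all genes in both animals. It was above the Purkinje cell genes in replicate 1 and below them in replicate 2. Oligodendrocyte genes had 2 and 1 of 14 and microglia genes 1 and 0 of 12. Per kb both of these lists were below all genes in both animals. The cell types differ in abundance in the tissue, and whether that bears on these counts was not tested.

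Synaptic scaffold and adhesion genes had a peak in 15 and 12 of 20, at 0.566 and 0.207 per kb. Sptbn4 led them, followed by Dlgap3 (6 and 3) and the active zone protein gene Bsn (8 and 2). All 23 peaks of replicate 2 in this list were found in replicate 1, and 23 of the 63 of replicate 1 (36.5%) were found in replicate 2. Over all coding exon peaks these shares were 84.8% and 48.6%. Neuronal ion channels and receptors had 12 and 8 of 24 genes, led by Cacna1a and by the calcium channel genes Cacna1c (4 and 3) and Cacna1i (4 and 2). Chromatin regulators had 17 and 13 of 24, led by Chd7, Srcap (6 and 3) and the acetyltransferase gene Ep300 (6 and 2). Per kb these lists were nearer to all genes (0.201 and 0.114) than their gene counts, with 0.314 and 0.177 for channels and 0.325 and 0.137 for chromatin regulators. Genes of giant proteins had 21 and 19 of 23, but at 0.186 and 0.111 per kb, near the value of all genes. Large cadherins had 4 and 3 of 10, among them Fat2, known from granule cells, with a peak of 16.8 and 11.7 in its segment 18 of 23. Per kb the large cadherins had 0.118 and 0.0392 peaks, fewer than all genes.

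Lists of other tissues and gene families had shares on both sides of that of all genes. Per kb the liver genes (0.160 and 0.0320) and striated muscle genes (0.127 and 0.0761) were below all genes in both animals. Liver genes had 5 and 1 of 15, and the one with a peak in both animals was Apoa1, the main apolipoprotein of HDL, with a peak of 9.83 and 5.76 in its last coding segment, 1330 bp from a start, and no promoter peak. Striated muscle genes had 3 and 2 of 15, with Mybpc3 at 3 and 2 peaks (highest 6.10 and 5.26) and Acta1 at 1 and 1. Of 280 olfactory receptor genes with eligible coding sequence 4 and 3 had a peak, and of 39 Hox genes none did in either animal. The Hox genes held only 14.2 kb of eligible coding sequence, so few peaks would be expected there at the rate of all genes. Zinc finger genes named Zfp had 63 and 37 of 392 (0.136 and 0.0708 per kb), led by Zfp316 with 3 and 4, Zfp592 with 2 and 4 and Zfp467 with 2 and 3. Collagens had 15 and 11 of 44, led by Col16a1 with 6 and 1, and at 0.155 and 0.0671 per kb they too were below all genes. Clustered protocadherins had 22 and 22 of 56 genes, yet this came from 9 and 6 distinct peaks, because genes of a cluster share constant exons.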

How the data were processed

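DNase-seq files of 2 cerebellum libraries were used. Per the labels, coordinates are on mm10. No aligner or caller is named (not given in the sources used here). Peaks were deposited per animal, and the deposited peak value is a signal (height) in each library's own scale. The authors' deposited footprint and false discovery rate files hold a p-value type of entry: 0.01 for every footprint, and rates listed below 0.05. The larger peak list was the main one, the footprints were used by position, and depth is unknown.

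With Python 3.11.15, numpy 2.4.6, pandas 2.3.3 and scipy 1.17.1, peaks were classed by midpoint against GENCODE M21 in the order promoter (within 1000 bp of a protein-coding start), CDS, other exon, intron, intergenic. Sharing needed 1 bp of overlap, and so did a footprint. GC and 14 motifs were read from GRCm38.p6 over 150 bp. Windows of coding segments shorter than that reach into the intron. Classification and overlap counting were tested on simulated intervals. Intervals are exact (95%, Clopper-Pearson). Peaks in 1 library are not replicates, so no p-values were computed. Alternatives changed the distance, the starts, the CDS, the peak list, the overlap and the window.

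Named items were the 20 genes with most peaks by the smaller count and the 10 highest matched peaks. Also named were the 10 genes with most peaks per kb and at least 3 in each animal, and the 5 matched peaks with most footprints. In each gene list the 3 genes with most peaks were picked, and the text names only some of these, with some genes that had none. The peaks, 17 gene lists and rules were chosen with earlier results of these data known. Among the 20 genes with most peaks, 1 is not reported here.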

Additional observations from a re-analysis of the deposited data

How the results depend on the processing

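Of 26 values recomputed with both animals, sharing left out, 20 stayed within the spread between animals (counts within 1.5 times). With 2 animals, leaving out either one cannot move a mean beyond that spread, and the SD of sharing (25.6) was wider than any alternative moved it, so neither says anything about stability. No paired analysis was possible because the samples form 1 group, which leaves no second group to pair with. With the smaller peak list the mean number of coding exon peaks was 2650.5 instead of 4643, their median percentile 43.3 instead of 45.5, and the share with a footprint 84.5% instead of 73.8%. With equal numbers of the highest peaks the percentile was 42.6. The median GC over 300 bp was 57.3% instead of 58.7% over 150 bp. Counting distinct coding segments kept 13 of the 20 genes with most peaks, and leaving out either replicate kept between 6 and 18, with Syne1 first each time. Leaving out either replicate gave 3356 to 5930 peaks, percentiles of 44.3 to 46.7, sharing of 48.6% to 84.8%, and footprints in 70.7% to 76.9%. With the starts of every annotated transcript excluded, 4764 and 2720 coding exon peaks remained. Depth is unknown, so a low peak missing from 1 animal may lie below its limit of detection.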
